A study of Mus musculus with 80 samples.

Results

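Transcripts of 10 genes of the insulin-like growth factor (IGF) system were followed in muscle stem cells (MuSCs) of extraocular muscles (EOM) and of *Tibialis anterior* (TA), before and after grafting. The genes were taken as a family, by their names: the ligands *Igf1* and *Igf2*, the receptors *Igf1r* and *Igf2r*, and the binding protein genes *Igfbp2*, *Igfbp3*, *Igfbp4*, *Igfbp5*, *Igfbp6* and *Igfbp7*. All 10 were found among the 25899 genes of the expression table.

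Donors were *Tg:Pax7-nGFP* mice of 7 to 7.6 weeks of age, in which nuclear GFP reports *Pax7* and served to sort MuSCs from EOM and from TA of the same animal. Pre-graft libraries were made from 500 sorted cells. Each TA into which cells were grafted belonged to a *Rag2-/-; γC-/-* recipient, lacking lymphocytes, and had been injured with cardiotoxin, and the EOM and TA cells of 1 donor went into separate muscles of the same recipient. GFP-positive cells were sorted again at day 21 by the labels. The study's results text gives a longer interval, and its methods a range that includes this day. By the labels this sort gave 16 to 67 cells in the TA grafts and 9 or more in the EOM grafts compared here. The study's own list of cell numbers differs from the labels for some libraries. Host cells of the injured muscle carry no GFP transgene, and the study describes the second sort as made on GFP positivity. Of 40 RNA libraries, 30 had passed the quality control of the study and were compared: 8 of EOM pre-graft, 8 of TA pre-graft, 7 of EOM post-graft and 7 of TA post-graft. They came from 2 experiments and held 963432 to 4169357 recovered reads on genes each. Experiment 1 gave 3 of the EOM pre-graft libraries, 2 of the TA pre-graft libraries and 1 of each kind of graft. Its donors were 7.6 weeks old and those of Experiment 2 were 7 weeks old, so age and experiment cannot be told apart.

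IGF1 and IGF2 are secreted peptides that act through the tyrosine kinase receptor IGF1R, and from there through the PI3K-Akt-Tor pathway, which drives protein synthesis and growth in muscle. IGF2R takes up IGF2 and carries it to lysosomes, so it limits the ligand rather than passing on its signal. The secreted binding proteins hold IGFs in the extracellular space, where they can protect them, deliver them or keep them from the receptor. IGFBP7 binds IGFs weakly and is known as a protein of blood vessels.

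The results turn on *Igfbp4*, *Igf1r*, *Igf1* and *Igfbp7*, and the promoters of these 4 genes are given first, as RefSeq has them on GRCm38.p6, from 250 bases before to 50 bases after an annotated start, 5′ to 3′ on the strand of the gene. Capitals mark the TATA box TATAAA, the E-box CAGCTG, which MyoD can bind, and the GC box GGGCGG, each searched on both strands. The *Igfbp4* promoter (chr11:99040994-99041293, plus strand) was the only one of the 4 with a TATA box, at position -28 from the start.
Igfbp4: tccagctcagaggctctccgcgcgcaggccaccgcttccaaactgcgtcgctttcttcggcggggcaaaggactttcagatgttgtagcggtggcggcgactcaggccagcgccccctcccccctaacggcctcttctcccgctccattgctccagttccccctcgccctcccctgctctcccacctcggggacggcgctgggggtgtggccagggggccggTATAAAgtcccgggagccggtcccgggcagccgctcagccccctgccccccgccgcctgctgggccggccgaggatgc
The *Igf1r* promoter (chr7:67952007-67952306, plus strand) held 48 CG dinucleotides, more than 98.8% of all promoters, and 2 GC boxes.
Igf1r: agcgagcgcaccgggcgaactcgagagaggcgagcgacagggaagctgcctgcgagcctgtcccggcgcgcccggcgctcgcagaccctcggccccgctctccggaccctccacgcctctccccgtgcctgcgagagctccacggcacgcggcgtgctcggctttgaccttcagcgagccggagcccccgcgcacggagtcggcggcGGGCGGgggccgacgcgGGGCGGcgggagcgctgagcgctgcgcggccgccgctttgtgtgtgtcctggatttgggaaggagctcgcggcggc
The *Igf1* promoter (chr10:87860861-87861160, plus strand) held 6 CG dinucleotides and 1 E-box.
Igf1: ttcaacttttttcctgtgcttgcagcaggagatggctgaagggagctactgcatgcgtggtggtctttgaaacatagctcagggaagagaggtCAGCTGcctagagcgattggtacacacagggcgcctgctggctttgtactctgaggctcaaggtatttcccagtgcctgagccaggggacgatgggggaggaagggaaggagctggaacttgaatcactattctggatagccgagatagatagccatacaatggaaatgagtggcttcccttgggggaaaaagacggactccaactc
The *Igfbp7* promoter (chr5:77407996-77408295, minus strand) held 33 CG dinucleotides and 4 GC boxes.
Igfbp7: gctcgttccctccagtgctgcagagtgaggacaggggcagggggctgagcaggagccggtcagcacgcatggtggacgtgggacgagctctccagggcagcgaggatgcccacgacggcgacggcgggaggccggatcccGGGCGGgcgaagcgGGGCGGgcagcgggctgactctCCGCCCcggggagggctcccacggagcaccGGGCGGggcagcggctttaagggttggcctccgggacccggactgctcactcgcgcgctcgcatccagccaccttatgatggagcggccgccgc
Among 32851 promoters of this length, 13.62% held the TATA box, 16.3% the E-box and 35.66% the GC box, and the median number of CG dinucleotides was 7. A match describes these letters and is not evidence of a bound site.

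Levels of different genes were compared per length, as RPM (reads per 1e+06 reads on genes) per kb of exon. Before grafting, *Igfbp7* ranked highest in EOM, with a median of 130.9 RPM per kb (100.2 to 271.3 over 8 libraries). Its lowest library lay above every library of *Igfbp4*, the next in order (43.4, from 28.8 to 86.7). *Igfbp5* (39.1), *Igf1* (20.4), *Igf2* (16.03) and *Igf2r* (8.46) followed, each overlapping with the next. *Igf1r* stood at 3.88 RPM per kb, and *Igfbp2* ended the order at 0.202.

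In TA the order before grafting differed in its middle part. *Igfbp7* (169.9 RPM per kb) and *Igfbp5* (58.1) again stood high, and *Igf1* (12.96) now came before *Igfbp4* (10.8). *Igf2* (10.0), *Igf2r* (9.76), *Igfbp3* (5.76) and *Igf1r* (2.14) came next, and *Igfbp2* and *Igfbp6* had medians of 0. Neighbours in this order overlapped, except that all libraries of *Igf1r* lay above all of *Igfbp2*. The order describes medians, and exon lengths are the union of all annotated exons, 1.11 kb for *Igfbp6* and 16.79 kb for *Igf1r*, so long untranslated exons lower the value of *Igf1r*.

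After grafting, *Igfbp7* stood well above the rest in both muscles, at 712.5 RPM per kb in EOM grafts (255.2 to 1162) and 791.5 in TA grafts (440.2 to 1234). In TA grafts its lowest library exceeded the highest of *Igfbp6*, and in EOM grafts these genes overlapped. *Igf1*, at rank 4 in EOM and 3 in TA before grafting, came at rank 8 in both kinds of graft, at 4.11 and 2.88 RPM per kb. *Igf1r* was at rank 9 in both, at 0.785 and 1.56.

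**Figure D1:**
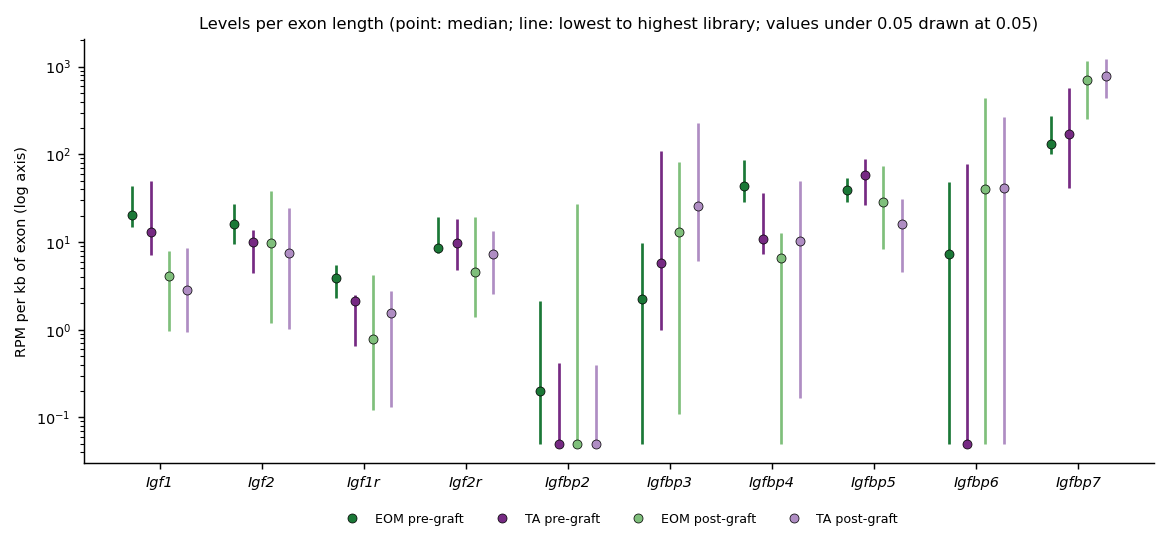
Median RPM per kb of exon of the 10 genes in the 4 groups (log axis), with lines from the lowest to the highest library. *Igfbp7* has the highest median in each group, from 130.9 in EOM pre-graft to 791.5 in TA post-graft, and *Igfbp2* lies lowest or shares the lowest place.

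**Figure D2:**
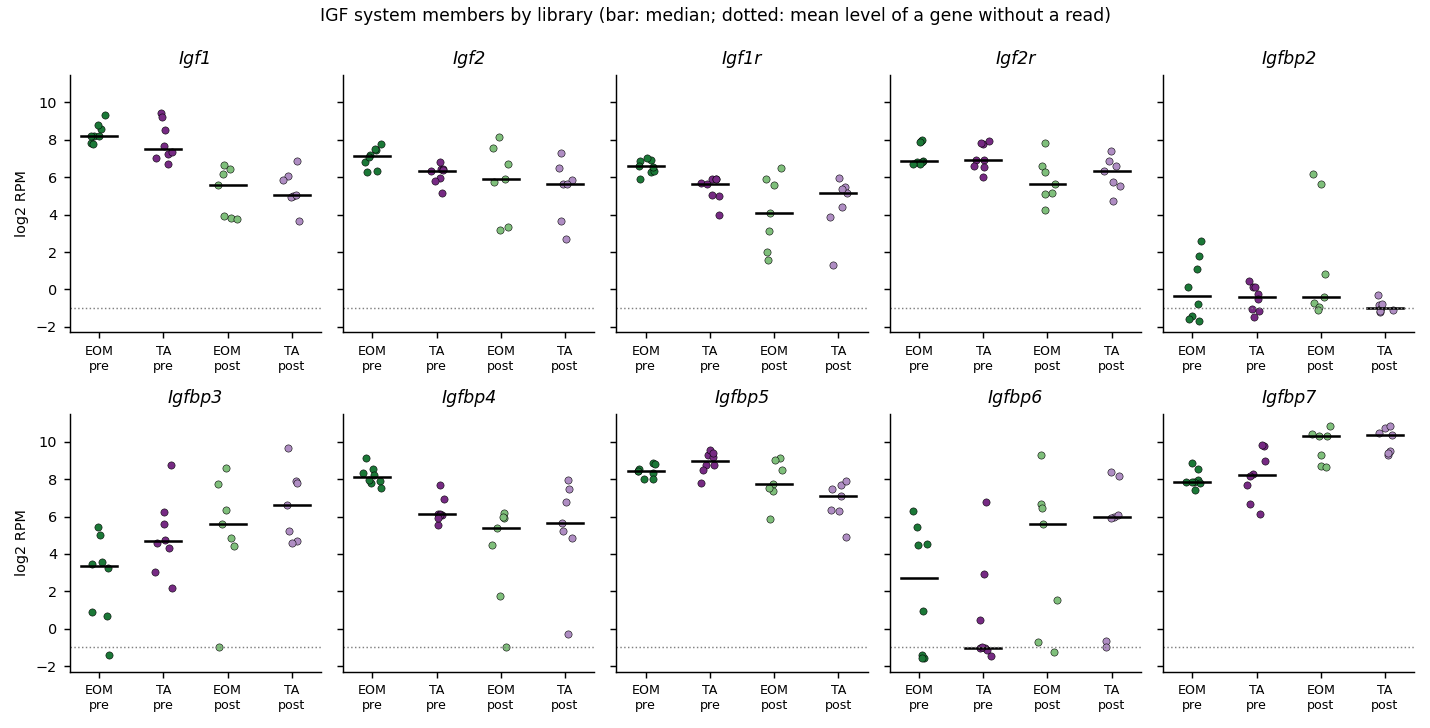
Log2 RPM of the 10 genes in each of 30 libraries, 1 point per library, with bars at group medians and a dotted line at the mean level of a gene without a read. *Igf1* falls on grafting in both muscles, *Igfbp7* rises, *Igfbp4* is higher in EOM than in TA before grafting, and *Igfbp2*, *Igfbp3* and *Igfbp6* spread down to libraries without a read.

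The comparison of EOM with TA before grafting asks which IGF transcripts differ between stem cells of a head and of a limb muscle. *Igfbp4* and *Igf1r* were higher in EOM, and no member was higher in TA, among the 9 that passed the filter on low values (log2 RPM above 1 in at least 4 of the libraries compared). Log2 RPM values were compared in limma. Calls needed both a Benjamini-Hochberg adjusted p below 0.05, over every gene tested, and a log2 fold change larger than 1 in size. The 2 members higher in EOM compare with 3.31% of the 13217 genes tested (437 genes), and the 0 higher in TA with 1.26% (166 genes). After centring each library on the median of its tested genes the split of all genes was 275 to 234, and in edgeR 191 to 247. The median log2 fold change of all genes tested, TA over EOM, was -0.30, so that each member's difference is also given relative to it.

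*Igfbp4*, on chromosome 11 (99041244 to 99054392, GRCm38, plus strand), encodes a binding protein that mostly restrains IGF action. It stood at log2 RPM 7.52, 8.10 and 9.12 (lowest, median and highest of 8) in EOM and at 5.53, 6.11 and 7.66 in TA. Only 1 TA library reached into the EOM range, and EOM was higher in 7 of 7 donors with both muscles. The difference was 3.65-fold, a log2 fold change of -1.87 (SE 0.26, 95% confidence interval -2.41 to -1.33, adjusted p = 4.59e-05 in limma), and -1.57 relative to the median gene. In Experiment 2 alone it was -2.20 (adjusted p = 0.000653 in limma), and both TA libraries of Experiment 1 lay below its 3 EOM libraries. The reads behind it were 341 to 1596 in EOM and 44 to 483 in TA.

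*Igf1r* (chromosome 7, 67952859 to 68226780, plus strand), the receptor through which both ligands signal, stood at log2 RPM 5.89, 6.59 and 7.04 in EOM and at 3.97, 5.66 and 5.92 in TA. Of the TA libraries 6 lay below all EOM libraries, and EOM was higher in 7 of 7 donors. The difference was 2.26-fold, a log2 fold change of -1.18 (SE 0.26, -1.72 to -0.63, adjusted p = 0.00646 in limma), and -0.88 relative to the median gene. It sits close to the limit of the call. With the donor mouse as replicate block it was -0.93 (adjusted p = 0.00487), without TA replicate 3 of Experiment 2 it was -0.97 (adjusted p = 0.00483), and with each library centred on its median -0.94 (adjusted p = 0.0187), each in limma and each short of the limit of size. edgeR (-0.90, adjusted p = 0.0206) and DESeq2 (-0.89, adjusted p = 0.00446) also gave a change below that limit. In Experiment 2 alone it was -1.12 with an adjusted p of 0.0714 in limma.

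*Igf2*, the ligand of fetal growth (chromosome 7, 142650766 to 142666816, minus strand), stood at 6.29, 7.13 and 7.79 in EOM and at 5.14, 6.35 and 6.79 in TA. EOM was higher in 6 of 7 donors. The log2 fold change of -0.91 (SE 0.24, -1.41 to -0.40) had an adjusted p of 0.0227 in limma and did not reach the limit of size. *H19*, the imprinted noncoding gene next to *Igf2* on the same chromosome (142575529 to 142578143), stood at 5.58, 6.31 and 6.75 in EOM and at -1.02, 3.83 and 5.11 in TA, without overlap. The log2 fold change was -2.83 (SE 0.58, adjusted p = 0.00317 in limma), and EOM was higher in 7 of 7 donors. *H19* is no member and was on the list of 52 pathway genes, of which 42 were tested and it alone was called. Alleles were not told apart here.

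*Igfbp5* encodes a binding protein that muscle cells make and that can both restrain and prolong IGF action. It stood at 8.0, 8.45 and 8.88 in EOM and at 7.79, 8.96 and 9.54 in TA, and TA was higher in 6 of 7 donors. The difference of 0.46 on the log2 scale (0.02 to 0.89) had an adjusted p of 0.181 in limma. With the donor as replicate block it was 0.52 (adjusted p = 0.0364), below the limit of size.

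*Igf1* and *Igf2r* gave no call between the muscles before grafting. *Igf1*, the main growth ligand of adult muscle, stood at 7.79, 8.19 and 9.30 in EOM and at 6.69, 7.49 and 9.44 in TA, and was higher in EOM in 4 of 7 donors. The difference of -0.46 on the log2 scale has an interval of -1.17 to 0.24. In TA the libraries of Experiment 1 had *Igf1* at 9.20 and 9.44, and those of Experiment 2 at 6.69 to 8.52. *Igf2r* stood at 6.72, 6.84 and 8.01 in EOM and at 6.01, 6.93 and 7.92 in TA, with a log2 fold change of -0.16 (-0.75 to 0.43). The sign for *Igf2r* turned positive under 5 of the alternative settings, which leaves its direction undetermined. Reads of *Igf2r* and of *Airn*, a noncoding gene that overlaps it on the opposite strand, cannot be told apart in a protocol without strand, and *Airn* held 5936 reads over the 30 libraries against 6609 for *Igf2r*.

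*Igfbp3*, *Igfbp6* and *Igfbp7* varied more between libraries than between muscles before grafting. *Igfbp3* stood at -1.4, 3.35 and 5.44 in EOM (0 to 67 reads) and at 2.16, 4.67 and 8.74 in TA (8 to 1017 reads). Its log2 fold change of 2.31 was large but had an interval of 0.38 to 4.24 and an adjusted p of 0.129 in limma, while DESeq2 gave 2.99 with an adjusted p of 0.0408. *Igfbp6* had no read in 3 of 8 EOM and 6 of 8 TA libraries and reached 225 and 258 reads in others. *Igfbp7* stood at 7.44, 7.85 and 8.88 in EOM and at 6.15, 8.21 and 9.82 in TA, with a log2 fold change of 0.16 (-0.69 to 1.02). *Igfbp2*, the tenth member, did not pass the filter. It had at most 2 reads in any TA library and at most 10 in any EOM library, and differences at that level were not detectable at this depth.

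Some genes listed as markers of other cell types differed between the muscles before grafting. The lists are not exclusive, as muscle stem cells can also express some of these genes, *Cd34* and *Tek* among them. In limma *Dcn* (-5.62) and *Cd34* (-1.39) of the 10 fibro-adipogenic and fibroblast markers, *Mbp* (-5.17) of the 8 Schwann cell markers and *Tek* (-1.45) of the 10 endothelial markers were called higher in EOM. *Cdh5* (4.09) of the endothelial, *Myh11* (3.93) of the 10 mural and *Acta1* (2.89) and *Myh4* (2.63) of the 10 myofibre markers were called higher in TA, as was *Pax7* (1.15) of the 10 muscle stem cell markers. Apart from *Tek*, every endothelial marker leaned to TA, from 2.04 (*Emcn*) to 4.09 (*Cdh5*), though only *Cdh5* of these was called. List medians were 3.03 (endothelial), 1.58 (myofibre), 0.22 (mural), -1.68 (fibro-adipogenic and fibroblast) and -2.01 (Schwann cell). Summed Schwann cell markers ranged from 23.8 to 1851 RPM in EOM and from 6.23 to 312 RPM in TA. The part of these markers in the differences of *Igfbp4* and *Igf1r* was not tested.

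No member had pre-graft values without overlap between the muscles, where 2.28% of all genes tested had. In 1 fit over all 4 groups, which takes the wider spread after grafting into the error, neither *Igfbp4* (adjusted p = 0.451) nor *Igf1r* (adjusted p = 0.574) was called in limma, with the same log2 fold changes.

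**Figure D3:**
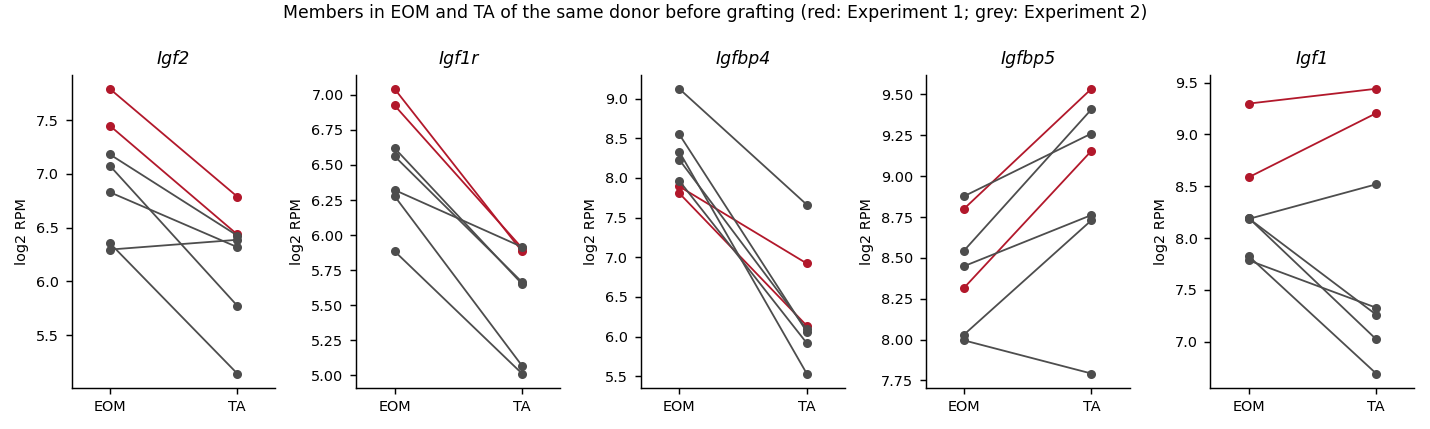
Log2 RPM of *Igf2*, *Igf1r*, *Igfbp4*, *Igfbp5* and *Igf1* in EOM and TA of the same 7 donors before grafting, 1 line per donor, red for Experiment 1 and grey for Experiment 2. *Igf1r* and *Igfbp4* slope down from EOM to TA in 7 of 7 donors and *Igf2* in 6, *Igfbp5* slopes up in 6, and *Igf1* has 3 lines up and 4 down.

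The comparisons of grafts with pre-graft cells ask how the transcripts changed once cells had been transplanted into an injured TA. *Igf1* fell and *Igfbp7* rose in both muscles. In TA cells *Igfbp5* also fell and *Igfbp6* rose, and in EOM cells *Igfbp4*, *Igf1r* and *Igf2r* fell. The calls of *Igfbp6*, *Igf1r* and *Igf2r* were lost under some of the alternative settings given below. The scale of the table shifted at the same time: the median log2 fold change of all genes tested was -1.09 in TA and -1.48 in EOM, while the mean share of reads in mitochondrial genes went from 11.3% to 24.9% in TA and from 4.48% to 31.4% in EOM. Of the 9 members tested in TA, 2 were called lower and 2 higher, against 30.9% and 3.79% of all genes tested. Of the 10 tested in EOM, 4 were called lower and 1 higher, against 55.8% and 3.51%. With each library centred on the median of its tested genes, 2 members were lower and 3 higher in TA (5.68% and 7.67% of genes), and 2 lower and 2 higher in EOM (4.84% and 6.65%). The 2 graft comparisons rest on different libraries, while each shares its pre-graft libraries with the comparison above.

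*Igf1* (chromosome 10, 87858265 to 87937042, plus strand) stood at 3.77, 5.58 and 6.66 in the 7 EOM grafts (16 to 214 reads) and at 3.64, 5.04 and 6.85 in the 7 TA grafts (24 to 202 reads). Every EOM graft lay below every EOM pre-graft library, and 6 of 7 TA grafts lay below all TA pre-graft libraries. *Igf1* was lower after grafting in 6 of 6 EOM and 7 of 7 TA donors. It fell 8.92-fold in EOM, a log2 fold change of -3.16 (SE 0.45, -4.10 to -2.22, adjusted p = 8.14e-05 in limma). In TA it fell 5.86-fold, a log2 fold change of -2.55 (SE 0.48, -3.54 to -1.56, adjusted p = 0.00104 in limma). Relative to the median gene these changes were -1.68 and -1.47, and after centring they were -1.91 (adjusted p = 0.00293) and -1.66 (adjusted p = 0.0250) in limma. In Experiment 2 alone they were -3.08 in EOM (adjusted p = 0.000749) and -2.02 in TA (adjusted p = 0.0198) in limma.

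*Igfbp7* (chromosome 5, 77349240 to 77408045, minus strand) stood at 8.64, 10.31 and 10.82 in EOM grafts (468 to 2588 reads) and at 9.31, 10.33 and 10.86 in TA grafts (774 to 3680 reads). In EOM 5 of 7 grafts, and in TA 4 of 7, lay above all pre-graft libraries. It was higher after grafting in 5 of 6 EOM and 7 of 7 TA donors. The log2 fold change was 1.76 in EOM (SE 0.34, 1.06 to 2.47, adjusted p = 0.000728 in limma), a 3.39-fold rise, and 1.90 in TA (SE 0.48, 0.93 to 2.88, adjusted p = 0.00588 in limma), a 3.74-fold rise. Relative to the falling median gene these changes were 3.24 and 2.99. *Polr2b*, a gene on the opposite strand that overlaps it at an end, held 3365 reads against 37306 for *Igfbp7*.

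**Figure D4:**
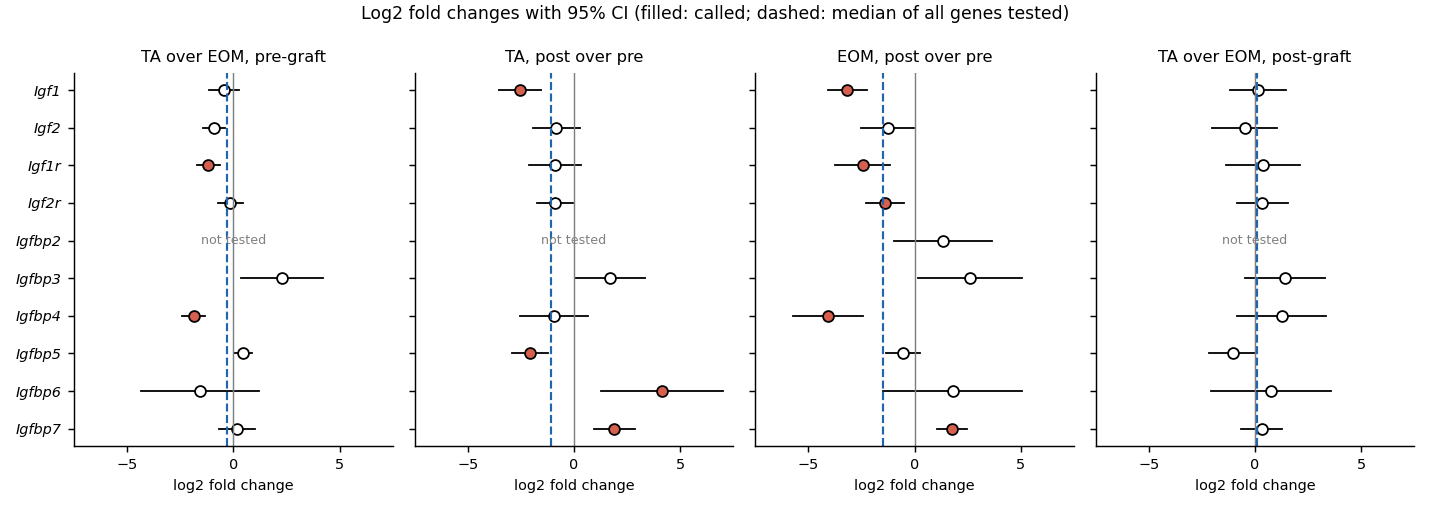
Log2 fold changes of the 10 genes with 95% confidence intervals in 4 comparisons, filled where called, with a dashed line at the median of all genes tested. Before grafting *Igfbp4* (-1.87) and *Igf1r* (-1.18) are filled, *Igf1* is filled left of the dashed line and *Igfbp7* right of it in both graft panels, and no point is filled after grafting.

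Markers of other cell types moved with the grafts. Of the 10 endothelial markers, 9 were called higher after grafting in EOM and 9 in TA, and their summed level went from 66.6 to 628 RPM before to 184 to 5200 RPM after grafting in EOM, and from 13.8 to 2263 RPM to 1313 to 6589 RPM in TA. All 10 muscle stem cell markers, *Pax7* among them, were called lower in both muscles, from 8887 to 12600 RPM before to 867 to 11150 after in EOM, and from 9325 to 16100 to 220 to 7042 in TA. Of all genes tested, 55.8% were called lower in EOM and 30.9% in TA, and 3.51% and 3.79% higher. The median log2 fold change of these 10 markers was -2.24 in EOM and -2.81 in TA, beside -1.48 and -1.09 for all genes. In EOM they ranged from -3.16 (*Cdh15*) to -1.03 (*Vcam1*). Of 10 myofibre markers, 8 were called higher in EOM grafts, and 3 higher and 1 lower in TA grafts. Their summed level went from 47.1 to 90.0 RPM before to 97.1 to 1217 RPM after grafting in EOM, and from 134.8 to 388 RPM to 104.0 to 719 RPM in TA. Of 10 mural markers, 2 were called higher and 2 lower in EOM and 3 higher in TA, and of 7 Schwann cell markers tested 4 were called lower in EOM and 0 in TA. The part of these markers in the changes of the members was not tested. None of the endothelial or muscle stem cell markers was without a read in all libraries of any group. In such bulk samples fewer cells of a type and less RNA per cell cannot be told apart.

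In TA *Igfbp7* followed the endothelial markers from library to library. Before grafting in TA, the library with 13.8 RPM of endothelial markers had *Igfbp7* at log2 RPM 6.15, and the 2 libraries with 1608 and 2263 RPM had it at 9.82 and 9.75. Within the 8 TA pre-graft libraries Pearson's r between *Igfbp7* and the log2 of the marker sum was 0.918 and Spearman's rho 0.952 (exact permutation p = 0.000744 and 0.00114, adjusted 0.0179 and 0.0411). Within the 7 TA grafts r was 0.971 and rho 0.964 (exact permutation p = 0.000992 and 0.00278, adjusted 0.0179 and 0.050). Without the 2 libraries farthest in marker level, r was 0.866 and 0.948.

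In EOM the relation pointed the same way but did not pass the correction. It gave r = 0.860 and rho = 0.595 over 8 pre-graft libraries (exact permutation p = 0.00791 and 0.132, adjusted 0.0929 and 0.397). Over the 7 EOM grafts it gave r = 0.898 and rho = 0.857 (exact permutation p = 0.0109 and 0.0238, adjusted 0.0929 and 0.168). Without the 2 farthest libraries r was 0.922 and 0.995. Tests were two-sided, with Benjamini-Hochberg adjustment over the 36 relations of 9 members in 4 groups. The 2 of *Igfbp7* in TA were the only ones with an adjusted p under 0.05 for r. Within the 7 TA grafts *Igfbp4* had r = 0.769 and rho = 0.857 (exact permutation p = 0.0129 and 0.0238, adjusted 0.0929 and 0.168). In the other groups its r was 0.348 (TA pre-graft), -0.126 (EOM pre-graft) and -0.218 (EOM grafts). A member's level and the marker sum are shares of the same library, and the relation was computed after the values had been seen. Its p values are therefore descriptive. Only the endothelial list was set against the members, and the adjustment does not cover the choice of that list.

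The grafts whose endothelial marker sum lay inside the pre-graft range of their muscle also had *Igfbp7* inside its pre-graft range. These were 1 EOM graft, with 184 RPM of markers and *Igfbp7* at 8.68 (pre-graft 7.44 to 8.88), and 3 TA grafts, with 1313 to 2130 RPM and *Igfbp7* at 9.31 to 9.49 (pre-graft 6.15 to 9.82). The 4 TA grafts with 3719 to 6589 RPM had it at 10.33 to 10.86. In EOM the 6 grafts with 719 to 5200 RPM had it at 8.64 to 10.82. The EOM graft at 8.64, with 1049 RPM of markers, thus lay above the pre-graft marker range but inside that of *Igfbp7*. The part of the endothelial markers in the change of *Igfbp7* was not tested.

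**Figure D5:**
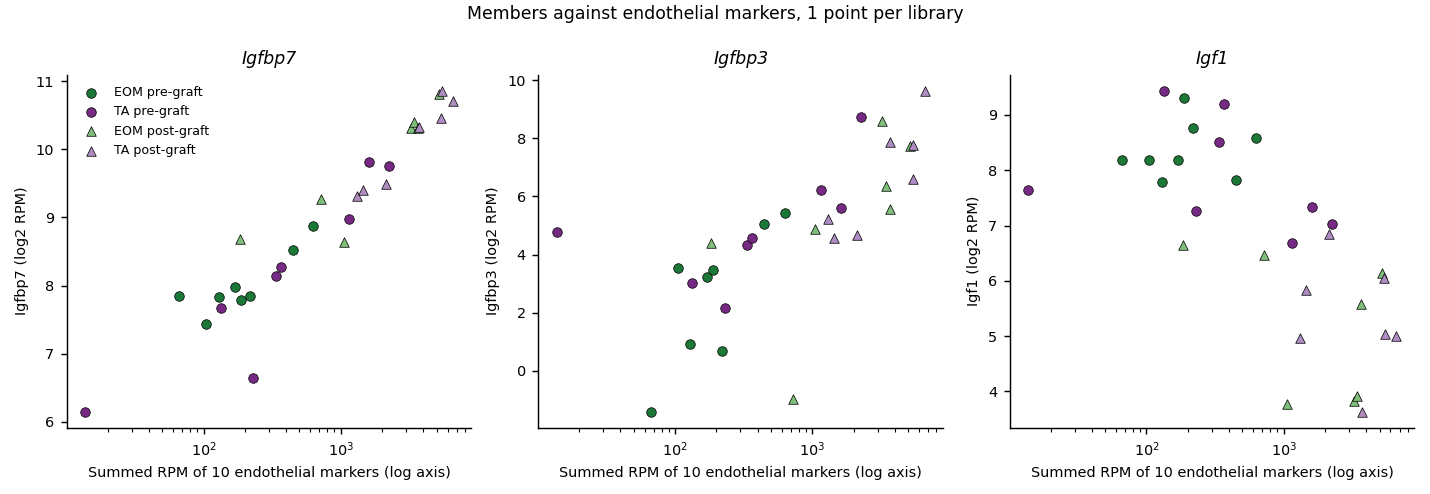
Log2 RPM of *Igfbp7*, *Igfbp3* and *Igf1* against the summed RPM of 10 endothelial markers (log axis), 1 point per library, circles pre-graft and triangles post-graft. *Igfbp7* climbs from 6.15 at 13.8 RPM to 10.71 at 6589 RPM, *Igfbp3* is more scattered, and the *Igf1* grafts lie between 3.64 and 6.85 at any marker level.

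*Igfbp3*, the main carrier of IGFs in blood, stood at -0.99, 5.58 and 8.58 in EOM grafts (1 to 564 reads) and at 4.56, 6.60 and 9.64 in TA grafts (37 to 1669 reads). Its log2 fold changes of 2.60 in EOM (0.15 to 5.05, adjusted p = 0.0601) and 1.70 in TA (0.06 to 3.34, adjusted p = 0.0916) were not called in the main limma fit. After centring they were 3.85 (adjusted p = 0.0468) and 2.59 (adjusted p = 0.0390) in limma, which passes both limits. edgeR gave 4.32 in EOM (adjusted p = 0.0101) and 1.70 in TA (adjusted p = 0.238), and DESeq2 4.47 (adjusted p = 0.000655) and 1.78 (adjusted p = 0.202). In limma *Igfbp3* was also called in EOM with log2(RPM + 1) (2.55, adjusted p = 0.0246) and in 1 fit over 4 groups (2.60, adjusted p = 0.0371). In TA it was called with all libraries (1.77, adjusted p = 0.0243 in limma). Neither change was called in Experiment 2 alone or with the donor as replicate block. Its r with the endothelial markers was 0.864 within TA grafts (exact permutation p = 0.0202, adjusted 0.118), with rho = 0.786 (exact permutation p = 0.048, adjusted 0.216), and 0.827 without the 2 farthest libraries.

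*Igfbp6*, a binding protein with a preference for IGF2, was patchy. In TA it had no read in 6 of 8 pre-graft libraries and 118 reads at the median of 7 grafts, where it stood at -0.97, 5.95 and 8.40. Its log2 fold change in TA was 4.13 (SE 1.398, 1.25 to 7.00, adjusted p = 0.0268 in limma), with 5 of 7 donors higher. Leaving out TA graft replicate 3 of Experiment 1, replicate 3 of Experiment 2 or replicate 5 of Experiment 2 took the adjusted p to 0.0569, 0.0654 and 0.0545, and edgeR gave 0.116 (log2 fold change 3.50). DESeq2 gave 3.64 (adjusted p = 0.281). In limma it was also not called in Experiment 2 alone (3.64, adjusted p = 0.0936) or with grafts of at least 20 cells (3.61, adjusted p = 0.114). In EOM it stood at -1.24, 5.58 and 9.30 after grafting, and the log2 fold change of 1.80 (-1.48 to 5.08) was not called. With the donor as replicate block it was 3.51 in EOM (adjusted p = 0.0335 in limma).

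Fibroblast markers were named among the genes most like *Igfbp6*. Over the 30 libraries, centred on their medians, the genes of highest Pearson correlation with it among 10167 compared were *Dcn* (0.81), *Col1a2* (0.76) and *Col1a1* (0.76), all 3 of them on the list of fibro-adipogenic and fibroblast markers. Of that list of 10, 6 were called higher and 2 lower in TA grafts, and 1 higher and 2 lower in EOM grafts. Its summed level was 1438 to 2857 RPM in TA before grafting and 1024 to 3422 after, and 1788 to 3227 and 885 to 13610 in EOM. In TA this sum pools the 6 markers called higher, from 2.28 (*Col1a2*) to 6.56 (*Dcn*), with *Col3a1* (-1.87) and *Dpt* (-2.66), which were called lower. The part of these markers in the change of *Igfbp6* was not tested.

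*Igfbp4* fell in EOM cells on grafting and had no call in TA cells. In EOM grafts it stood at -0.95, 5.41 and 6.18 (0 to 133 reads), with every graft below every pre-graft library and 6 of 6 donors lower. The log2 fold change was -4.06 (SE 0.80, -5.72 to -2.41, adjusted p = 0.000801 in limma), and -2.59 relative to the median gene. In TA grafts it stood at -0.29, 5.65 and 7.93 (1 to 510 reads), and the log2 fold change was -0.94 (-2.54 to 0.67). The difference between these changes, EOM minus TA, was -3.13 (-5.56 to -0.69) with an adjusted p of 0.569 in limma, so the changes were not shown to differ. Across the table *Igf1* and *Igfbp4* were the 2 members without overlap in the EOM comparison, where 11.3% of genes had none, and 0 members had none in the TA comparison, against 5.19%.

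*Igfbp5* (chromosome 1, 72857932 to 72874884, minus strand) fell in TA cells. It stood at 4.92, 7.12 and 7.90 in TA grafts, where 6 of 7 lay below all pre-graft libraries, and all 7 donors were lower. The log2 fold change was -2.06 (SE 0.41, -2.90 to -1.23, adjusted p = 0.00141 in limma), and -0.98 relative to the median gene. In EOM grafts it stood at 5.87, 7.75 and 9.15, with 3 of 6 donors lower and a log2 fold change of -0.55 (-1.34 to 0.24), which was 0.92 above the median gene. The difference between the changes, EOM minus TA, was 1.51 (0.35 to 2.67, adjusted p = 0.560 in limma). After centring it was 1.92 (adjusted p = 0.0190 in limma) and in DESeq2 1.91 (adjusted p = 0.00271).

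The receptors fell in EOM cells about as far as the median gene or somewhat further. *Igf1r* stood at 1.60, 4.10 and 6.51 in EOM grafts (6 to 193 reads) and had a log2 fold change of -2.44 (SE 0.62, -3.73 to -1.15, adjusted p = 0.00376 in limma), -0.96 relative to the median gene. *Igf2r* stood at 4.25, 5.64 and 7.84 and had a log2 fold change of -1.39 (SE 0.44, -2.30 to -0.48, adjusted p = 0.0120 in limma), 0.09 above the median gene. After centring neither was called, with -1.19 (adjusted p = 0.131) for *Igf1r* and -0.14 (adjusted p = 0.813) for *Igf2r* in limma, and neither edgeR nor DESeq2 called either. With the donor as replicate block *Igf2r* had -0.90 (adjusted p = 0.0873 in limma). In TA grafts *Igf1r* stood at 1.3, 5.14 and 5.97 (-0.88, from -2.09 to 0.33) and *Igf2r* at 4.71, 6.35 and 7.39 (-0.89, from -1.75 to -0.02), and neither was called.

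*Igf2* had a wide spread in the grafts. It stood at 3.20, 5.91 and 8.13 in EOM (15 to 596 reads) and at 2.71, 5.63 and 7.32 in TA (8 to 333 reads), with log2 fold changes of -1.26 (-2.51 to -0.01) and -0.83 (-1.95 to 0.28) that were not called and lay 0.22 and 0.25 above the median gene. *Igfbp2* stood at 50.0 RPM in EOM graft replicate 2 of Experiment 2 and at 38.5 RPM in replicate 4 of Experiment 1, and had at most 2 reads in the other EOM grafts and 1 in any TA graft. The change in EOM of 1.34 on the log2 scale (-0.95 to 3.64) was not called, and in TA it was not tested.

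The comparison of TA with EOM grafts asks whether a difference between the muscles was left once both had spent time in a TA. No member was called, and neither was any of the 12377 genes tested (0%). Of these genes 452 had an unadjusted p under 0.05 in limma and 347 in edgeR, where 0 were called, and DESeq2 called 3 genes, no member among them. The interval for *Igfbp4*, TA over EOM, was -0.84 to 3.36 around 1.26, and for *Igf1r* -1.37 to 2.13 around 0.38. For the ligands it was -1.19 to 1.47 around 0.14 (*Igf1*) and -2.01 to 1.05 around -0.48 (*Igf2*), and for *Igf2r* -0.84 to 1.53 around 0.35. For the other binding proteins tested it was -0.49 to 3.31 around 1.41 (*Igfbp3*), -2.08 to 3.59 around 0.75 (*Igfbp6*) and -0.66 to 1.27 around 0.30 (*Igfbp7*). Each of these intervals includes both no difference and a change of more than 2-fold in size. *Igfbp2* did not pass the filter. *Igfbp5* came closest, at -1.05 (-2.15 to 0.04, unadjusted p = 0.0594 in limma), with 5 of 6 donors lower in TA. No member passed the test of the difference between the changes either, where 0.208% of 14428 genes did and, after centring, 0.166%, *Igfbp5* being 1 of these. Beside *Igfbp4* and *Igfbp5*, given above, the change in EOM minus that in TA was -0.61 for *Igf1* (-2.0 to 0.78), -0.43 for *Igf2* (-2.13 to 1.28), -1.56 for *Igf1r* (-3.34 to 0.22) and -0.50 for *Igf2r* (-1.76 to 0.75). It was 1.79 for *Igfbp2* (-0.65 to 4.24), 0.90 for *Igfbp3* (-2.15 to 3.95), -2.33 for *Igfbp6* (-6.89 to 2.23) and -0.14 for *Igfbp7* (-1.38 to 1.10).

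Of the list of 52 pathway genes, 42 were tested before grafting, *H19* was called higher in EOM and 41 were not called, beside 3.31% of all genes called higher in EOM and 1.26% in TA. *Akt2*, a kinase downstream of the receptor, had a log2 fold change of -0.92 with an adjusted p of 0.00122 in limma, short of the limit of size. On grafting, 28 of 42 genes tested were called lower and 0 higher in EOM, with a median log2 fold change of -1.41 beside -1.48 for all genes, of which 55.8% were called lower and 3.51% higher. In TA, 17 of 41 were called lower and 3 higher, with a median of -0.98 beside -1.09 for all genes, of which 30.9% were called lower and 3.79% higher.

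Among the pathway genes called higher in TA grafts were *Stc1* (4.56, adjusted p = 0.00579), which encodes a stanniocalcin, a kind of protein that restrains the protease that cleaves IGFBP4, and *Trim63* (2.02, adjusted p = 0.0443), a ubiquitin ligase of muscle atrophy, each in limma. Among those called lower in TA, the changes were greatest in *Fbxo32* (-2.80), an atrophy gene, *Htra3* (-2.68), a secreted protease, and *Irs1* (-2.61), the adaptor that links IGF1R to PI3K. In EOM they were greatest in *Stc2* (-3.18), *Htra3* (-3.01), *Igf2bp2* (-2.86), which encodes a protein that binds *Igf2* mRNA, *Rptor* (-2.64), *Pik3r2* (-2.46) and *Igf2bp3* (-2.42). After centring, 3 genes were called lower in TA (*Htra3*, *Irs1* and *Pik3r2*) and 0 in EOM, and 4 were called higher in TA, *Stc1*, *Trim63* and *Insr* among them, and 1 in EOM. *Igfals*, *Igfbp1*, *Igfbpl1*, *Pappa2*, *Ins1*, *Ins2*, *Insrr*, *Irs4* and *Igf2bp1* passed the filter in none of these 3 comparisons.

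The genes whose pattern over the 30 libraries was most like that of a member were named by 1 rule, the highest Pearson correlation of log2 RPM centred on each library's median, among 10167 genes with at least 10 reads in at least 15 libraries. For *Igfbp7* they were *Srgn* (0.97), *Kitl* (0.96) and 1190002H23Rik (0.95), and for *Igfbp3* *Rnd1* (0.91), *Rapgef3* (0.88) and *Fam65a* (0.88). For *Igfbp4* they were *M6pr* (0.81), *Qrich1* (0.78) and *Pbxip1* (0.78), and for *Igf1* *Krt10* (0.78), Gm13703 (0.77) and *Arv1* (0.77). For *Igf1r* they were 2510002D24Rik (0.78), *Gsk3a* (0.77) and *St3gal2* (0.76), for *Igf2* *Creb3l2* (0.71), 2410002O22Rik (0.705) and *Exosc3* (0.69), for *Igf2r* *Nfib* (0.72), *Rnf169* (0.66) and AC113480.1 (0.64), and for *Igfbp5* *Fndc1* (0.68), *Sh2b1* (0.68) and *ORF61* (0.60). These values describe libraries of 4 groups that differ in level, and they carry no test. Among the members, *Igfbp7* and *Igfbp3* were closest to each other (0.75), and *Igfbp7* and *Igf1* farthest apart (-0.65).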

How the data were processed

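RNA of sorted cells was sequenced by G&T-seq, which captures polyadenylated RNA of a few cells in a protocol that keeps no strand. Per the labels, reads were trimmed with Trim Galore 0.4.4 and aligned to GRCm38 with HISAT2 2.1.0 (submitters' processing notes), and the authors deposited log2 values of reads per gene, corrected for library size in Seqmonk. The authors also deposited read counts per library and percent values of reads in genes and exons. The counting tool and annotation release are not given in the sources used here. Whole reads were recovered for 99.9971% of 1038600 values within 0.05 of a read, and a gene without a read stands at the value of 0.9 of a read. Of 25965 table rows, 25899 genes were kept, the row with more reads for each repeated symbol.

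The 30 libraries that passed the study's quality control were used. Of the 10 left out, 1 met its numeric limits and had been set aside by the study as an outlier. Total reads were 3326270 to 14402975. Cell numbers are those of the labels. The 40 bisulfite libraries were not analysed here.

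Genes with log2 RPM above 1 in at least 4 libraries of a comparison were tested in limma 3.58.1 (R 4.3.3), with Benjamini-Hochberg adjustment. Replicates are different donor mice. The members and lists were chosen with earlier results of these data known. All 10 members were named in each comparison, of 52 pathway genes at most 6 called by size of change, and for each member with at least 10 reads in at least 15 libraries the 3 genes most like it. *Akt2*, *Trim63*, *Insr* and *Airn* were named after their values were seen. Some pathway genes that were called are not reported here by name. Numbers in the labels tie samples to a donor mouse, so they pair samples. Deviations of the same donor from the group means correlated at a median of 0.07 over 7 pairs before grafting, 0.008 over 7 in TA, -0.04 over 6 in EOM and 0.038 over 6 after grafting.

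Alternatives were the donor as replicate block, the inclusion of all libraries, Experiment 2 alone, a term for the experiment, a single fit of the 4 groups, log2(RPM + 1), no filter and a stricter one, scaling without 13 mitochondrial genes, centring, and edgeR 4.0.16 and DESeq2 1.42.0 on the recovered reads. Each library was also left out in turn. The fit on grafts of at least 20 cells and the relation to endothelial markers were chosen after seeing the data. Scripts were tested on simulated data. Exon lengths are from GENCODE on GRCm38, and promoters from RefSeq on GRCm38.p6, where all 10 members matched.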

Additional observations from a re-analysis of the deposited data

Results flagged for a closer look

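In 40 groups of a member's values, the gap between the most distant library and its nearest neighbour was set against the range of the group (Dixon's test). Chance alone passes the limit in about 1 in 20 groups, and 2 libraries passed it.

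*Igf1r* in TA before grafting stood at log2 RPM 3.97 (31 reads) in replicate 3 of Experiment 2, while the other 7 libraries stood at 5.01 to 5.92 (39 to 124 reads). The gap was 0.537 of the range, just past the limit for 8 libraries.

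*Igfbp4* in TA grafts stood at -0.29 (1 read, from 16 cells) in replicate 3 of Experiment 2, while the other 6 stood at 4.83 to 7.93 (55 to 510 reads). The gap was 0.623 of the range, past the limit for 7 libraries.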

How the results depend on the processing

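Before grafting, 2 members were called. The count was 1 (*Igfbp4*) in edgeR, after centring, in Experiment 2 alone, with all libraries and with a replicate block for the donor, and 0 in 1 fit over 4 groups. It ranged from 1 to 3 when single libraries were left out: *Igf1r* was lost without TA replicate 3 of Experiment 2, and *Igf2* was gained without EOM replicate 4 or replicate 6 of Experiment 2. DESeq2 also called 2, *Igfbp4* and *Igfbp3*.

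Counts with single libraries left out ranged from 3 to 5 in TA grafts and from 5 to 7 in EOM grafts, against 4 and 5, and stayed at 0 after grafting and for the difference between the changes. Without EOM graft replicate 2 of Experiment 2, *Igf2* and *Igfbp3* were also called. For the difference between the changes, 1 member (*Igfbp5*) was called after centring and 1 in DESeq2. The replicate block changed no other call than those of *Igf1r* before grafting and of *Igf2r* and *Igfbp6* in EOM grafts.

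Signs turned only for values that were not called. Before grafting *Igf2r* was 0.016 in Experiment 2, 0.0069 without mitochondrial genes, 0.083 after centring, 0.057 in edgeR and 0.067 in DESeq2, and *Igfbp7* -0.063 with all libraries. In TA grafts, after centring, *Igf2* was 0.063, *Igf1r* 0.015 and *Igf2r* 0.0077. There edgeR gave 0.27 for *Igf2*, 0.18 for *Igf1r* and 0.58 for *Igfbp4*, and DESeq2 0.36, 0.29 and 0.67, with 0.046 for *Igf2r*. In EOM grafts *Igfbp5* was 0.32 without mitochondrial genes, 0.70 after centring, 0.72 in edgeR and 0.79 in DESeq2, and *Igf2* 0.25 and 0.31 in the last 2. After grafting *Igfbp6* was -0.73 with the replicate block and in Experiment 2, and -1.18 in grafts of at least 20 cells, and *Igf1r* -0.15 with all libraries. For the difference between the changes *Igfbp6* was 1.73 and *Igfbp7* 0.53 with the block. *Igfbp7* was 0.31 in Experiment 2, 0.14 without mitochondrial genes, 0.27 after centring and 0.90 in edgeR and DESeq2, *Igfbp3* -0.077 with all libraries and *Igf2* 0.29 in grafts of at least 20 cells. The cause was not tested. *Igfbp2*, *Igfbp3* and *Igfbp6* were without a read in some libraries, where depth limits any comparison.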
